A study of Mus musculus with 51 samples.

Results

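The genes described here are 6 mouse genes of the uptake, exchange and recycling of glutamate and GABA in astrocytes: Slc1a2, Slc1a3, Slc6a11, Glul, Slc7a11 and Slc38a3. For each gene, every peak of the 6 deposited lists that overlapped the gene body on mm9, with 10 kb added on each side, was taken, which gave 437 of 803595 peaks at 6 of 22359 coding genes. The lists come from ChIP-seq of H3K27ac, an acetylation of histone H3 found at active promoters and enhancers, and of H3K4me1, a methylation found at enhancers before and during their activity. Chromatin was taken at 3 stages of an in vitro differentiation of embryonic stem cells from C57/BL-6 mice. The astrogliogenic neural precursor cells (aNPC) grew with EGF and FGF-2, and the early astrocytes (eA) and late astrocytes (lA) had spent 1 and 5 days in medium with LIF and serum. No group carried a transgene or an siRNA. A stage and mark had 2 replicates, whose reads the authors merged before calling peaks, so that 12 of the 51 samples of the series stand behind 6 lists. No replicate error can therefore be given for any difference below and no test was run. The counts, lengths and ranks are a description of these 6 lists.

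An astrocyte clears glutamate from the synapse mainly through Slc1a2 and Slc1a3, sodium-coupled carriers of the cell membrane, and clears GABA through carriers such as Slc6a11. Glutamine synthetase, the product of Glul, turns the glutamate into glutamine, and Slc38a3 lets glutamine leave the cell so that neurons can make transmitter from it again. Slc7a11 is the light chain of the cystine and glutamate exchanger, which exports glutamate and imports the cystine needed for glutathione. Enhancers of such genes often lie in introns or at some distance, so that a gene can keep a marked promoter while its distal sites change.

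For each gene, 1 sequence is shown from a site where H3K27ac ranked high. For 5 of them it is the 200 bp centred on the summit of a peak, and for Slc7a11, whose strongest peak has its summit in exon 1, it is the 250 bp just upstream of the start site, which lie within the promoter site and in part between its aNPC peaks. All were read from the mm9 genome in the direction of transcription of the gene. Capitals mark letters that match 1 of 7 motifs searched on both strands: AP-1 (TGANTCA), CRE (TGACGTCA), STAT (TTCCNGGAA), RUNX (TGTGGT), the NF1 full site (TTGGC and GCCAA with 5 free bases between them), the antioxidant response element (TGACNNNGC) and the amino acid response element (TGATGNAA). No matches of different motifs overlapped in these 6 sequences.
Slc1a2 intron 5, eA summit, chr2:102585577-102585776, plus strand: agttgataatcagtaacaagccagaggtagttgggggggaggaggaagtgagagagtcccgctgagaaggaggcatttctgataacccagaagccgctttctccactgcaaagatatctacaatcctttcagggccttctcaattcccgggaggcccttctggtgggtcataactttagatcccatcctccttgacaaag
Slc1a3 intron 3, aNPC summit, chr15:8613126-8613325, minus strand: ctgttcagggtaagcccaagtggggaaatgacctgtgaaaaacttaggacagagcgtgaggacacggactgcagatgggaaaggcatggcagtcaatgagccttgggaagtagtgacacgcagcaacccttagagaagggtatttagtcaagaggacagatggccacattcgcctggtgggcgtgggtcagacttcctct
Slc6a11 intron 6, aNPC summit, chr6:114166486-114166685, plus strand: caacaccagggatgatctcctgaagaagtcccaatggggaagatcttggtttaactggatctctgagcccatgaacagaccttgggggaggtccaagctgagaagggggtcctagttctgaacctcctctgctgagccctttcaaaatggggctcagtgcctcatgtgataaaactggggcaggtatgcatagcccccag
Glul intron 1, aNPC summit, chr1:155747513-155747712, plus strand: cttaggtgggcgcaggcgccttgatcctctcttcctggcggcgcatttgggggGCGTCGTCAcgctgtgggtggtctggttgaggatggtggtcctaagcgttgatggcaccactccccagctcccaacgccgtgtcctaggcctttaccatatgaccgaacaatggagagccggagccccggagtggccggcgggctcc
Slc7a11 upstream of the start site, chr3:50247536-50247785, minus strand: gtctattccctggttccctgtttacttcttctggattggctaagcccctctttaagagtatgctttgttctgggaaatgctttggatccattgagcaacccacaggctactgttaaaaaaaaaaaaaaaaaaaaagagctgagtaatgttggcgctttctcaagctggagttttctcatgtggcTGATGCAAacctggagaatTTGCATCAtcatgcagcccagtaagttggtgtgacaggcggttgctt
Slc38a3 intron 1, aNPC summit, chr9:107562548-107562747, minus strand: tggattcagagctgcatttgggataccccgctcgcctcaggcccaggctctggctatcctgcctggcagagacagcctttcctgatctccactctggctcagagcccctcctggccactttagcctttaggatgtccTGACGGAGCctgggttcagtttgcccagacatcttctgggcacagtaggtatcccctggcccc

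The Slc7a11 promoter held 2 copies of the amino acid response letters in opposite directions, TGATGCAA from −66 to −59 and TTGCATCA from −47 to −40 relative to the start site. The amino acid response element is known as the site through which Atf4 raises genes of amino acid supply. At least 1 match stood in 3.13% of the 22359 promoters of the same length. The antioxidant response letters, known for Nrf2, stood once in the Glul sequence and once in the Slc38a3 sequence, the only matches among the 58 aNPC windows of the 6 genes (3.45%, against 7.86% of all 79413 aNPC summits). At eA they stood in 3 of 48 windows, all at Slc1a3 (6.25% against 7.71%), at lA in 1 of 38, also at Slc1a3 (2.63% against 7.63%), and once in the 250 bp upstream of Slc6a11, as in 10.0% of all promoters. The windows around the eA and lA summits of the printed Glul and Slc38a3 sites held no match. The amino acid response letters stood in 0 of 58, 2 of 48 and 1 of 38 windows, at Slc1a2 (eA and lA) and Slc38a3 (eA), where 2.93%, 2.48% and 2.54% of all summits held them. In the printed sequences of Slc1a2, Slc1a3 and Slc6a11 none of the 7 motifs matched. Over all windows around the summits of the 6 genes, the RUNX letters stood in 6 of 58 at aNPC, 4 of 48 at eA and 2 of 38 at lA, where 13.6%, 13.0% and 13.8% of all summits held them. AP-1 letters stood in 2 of 58 windows at aNPC and in 0 at eA and lA (5.83%, 5.70% and 5.67% of all summits). STAT letters stood in 0 windows at aNPC and lA and in 1 of 48 at eA, at Slc6a11 (0.643%, 0.693% and 0.645% of all summits). CRE and NF1 full site letters stood in 0 windows, and in at most 0.164% of all summits of a list. A match is a run of letters and does not show that a factor was bound.

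At the 6 genes together, H3K27ac peaks became fewer from stage to stage while the lists as a whole became longer. There were 58 H3K27ac peaks at aNPC, 48 at eA and 38 at lA, covering 34.3, 30.2 and 25.8 kb. The whole H3K27ac lists held 79413, 83433 and 92700 peaks and covered 45.4, 44.3 and 50.1 Mb. The covered share of the 6 windows was 6.21% at aNPC, 5.46% at eA and 4.67% at lA. It was smaller at lA than at aNPC for 5 of the 6 genes, all but Slc1a2, and for 49.2% of the 16553 windows of coding genes with a peak at either stage. H3K4me1 peaks numbered 95, 108 and 90 and covered 66.7, 70.0 and 57.2 kb, in lists of 154238, 185478 and 208333 peaks. The H3K4me1 share was smaller at lA than at aNPC for 3 of the 6 genes, Slc6a11, Slc7a11 and Slc38a3. Of the 18486 windows compared in the same way for this mark, 33.2% had a smaller one. Read depth is not part of the lists, and the merged libraries may differ in it.

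**Figure D1:**
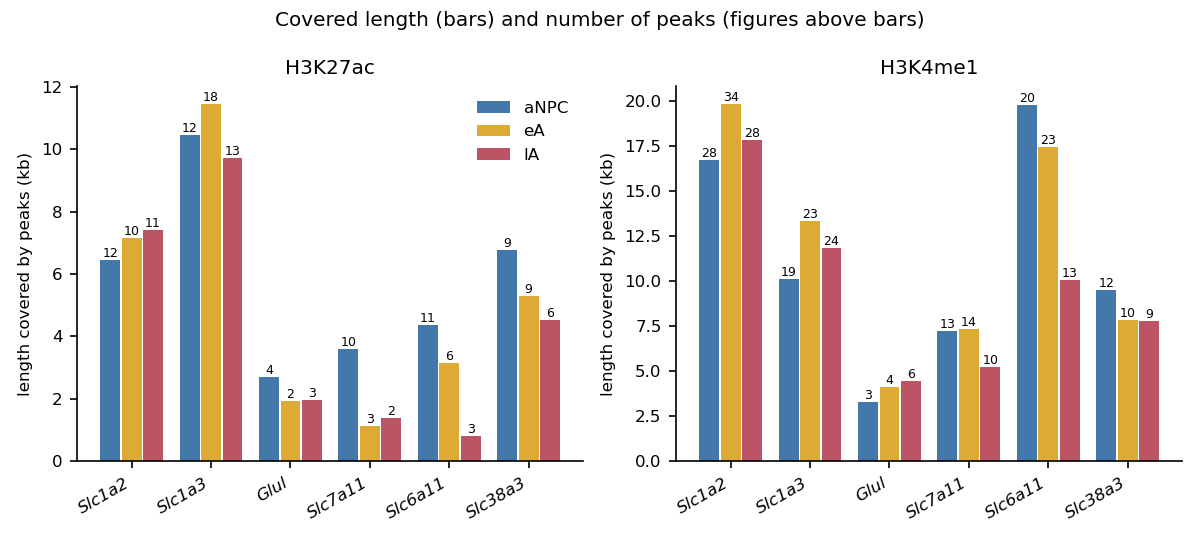
Length covered by peaks (kb, bars) and number of peaks (above the bars) in the window of each gene, for H3K27ac on the left and H3K4me1 on the right, at aNPC, eA and lA. H3K27ac at Slc6a11 went from 11 peaks to 6 and 3 and at Slc7a11 from 10 to 3 and 2, while Slc1a2 had 12, 10 and 11.

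The genes fell apart in how they changed. Slc1a2 had 12, 10 and 11 H3K27ac peaks at aNPC, eA and lA, covering 6.45, 7.17 and 7.41 kb. Slc1a3 had 12, 18 and 13 peaks over 10.5, 11.5 and 9.74 kb. At these glutamate carriers 3 of 12 and 2 of 12 aNPC peaks met no peak at lA, where 45.4% of all aNPC peaks met none, and the number of peaks at lA was close to that at aNPC. Slc6a11, the GABA carrier, had 11, 6 and 3 peaks over 4.37, 3.16 and 0.791 kb. Slc7a11 had 10, 3 and 2 peaks over 3.59, 1.14 and 1.39 kb. By lA most of the aNPC peaks of both met no peak. Where only peaks with −log10 q values from 5 upward were counted, Slc6a11 had 7, 3 and 1 peaks, the last over 0.266 kb, and Slc7a11 had 7, 3 and 1, and with equally long lists Slc6a11 had 2 peaks over 0.462 kb at lA. Glul had 4, 2 and 3 peaks over 2.69, 1.94 and 1.98 kb, most of it in 1 site at the promoter, and 3, 2 and 1 peaks with a −log10 q of at least 5. Slc38a3 had 9, 9 and 6 peaks over 6.76, 5.30 and 4.52 kb.

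Read against all 22359 coding genes, Slc38a3 and Slc1a3 were among the most densely marked. The H3K27ac covered share of Slc38a3, at 18.4%, 14.4% and 12.3%, lay above that of 99.4%, 97.3% and 95.8% of coding genes at aNPC, eA and lA, and that of Slc1a3, at 10.8%, 11.9% and 10.1%, above that of 93.7%, 94.5% and 92.0%. Glul lay above 89.8%, 78.0% and 80.0% of genes. The values for Slc1a2 were 65.9%, 66.0% and 68.9%. Slc6a11 went from above 56.4% of genes to 44.4% and 31.5%, and Slc7a11 from 60.8% to 35.2% and 37.9%. Over all coding genes, the median covered share was 2.53%, 2.90% and 2.74%.

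Promoters of the 6 genes were marked at nearly every stage, where a promoter reached from 1 kb before the start of a coding transcript to 100 bp after it. An H3K27ac peak overlapped a promoter of 5 of the 6 genes at aNPC, at eA and at lA, where 50.6%, 53.2% and 48.2% of all coding genes had one. Slc6a11 was the exception at every stage. An H3K4me1 peak overlapped a promoter of 6 of 6 genes at each stage, against 55.4%, 53.6% and 52.7% of coding genes. For H3K27ac, promoter peaks numbered 10, 9 and 9 and distal peaks 48, 39 and 29. For H3K4me1, promoter peaks numbered 16, 12 and 12 and distal peaks 79, 96 and 78.

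**Figure D2:**
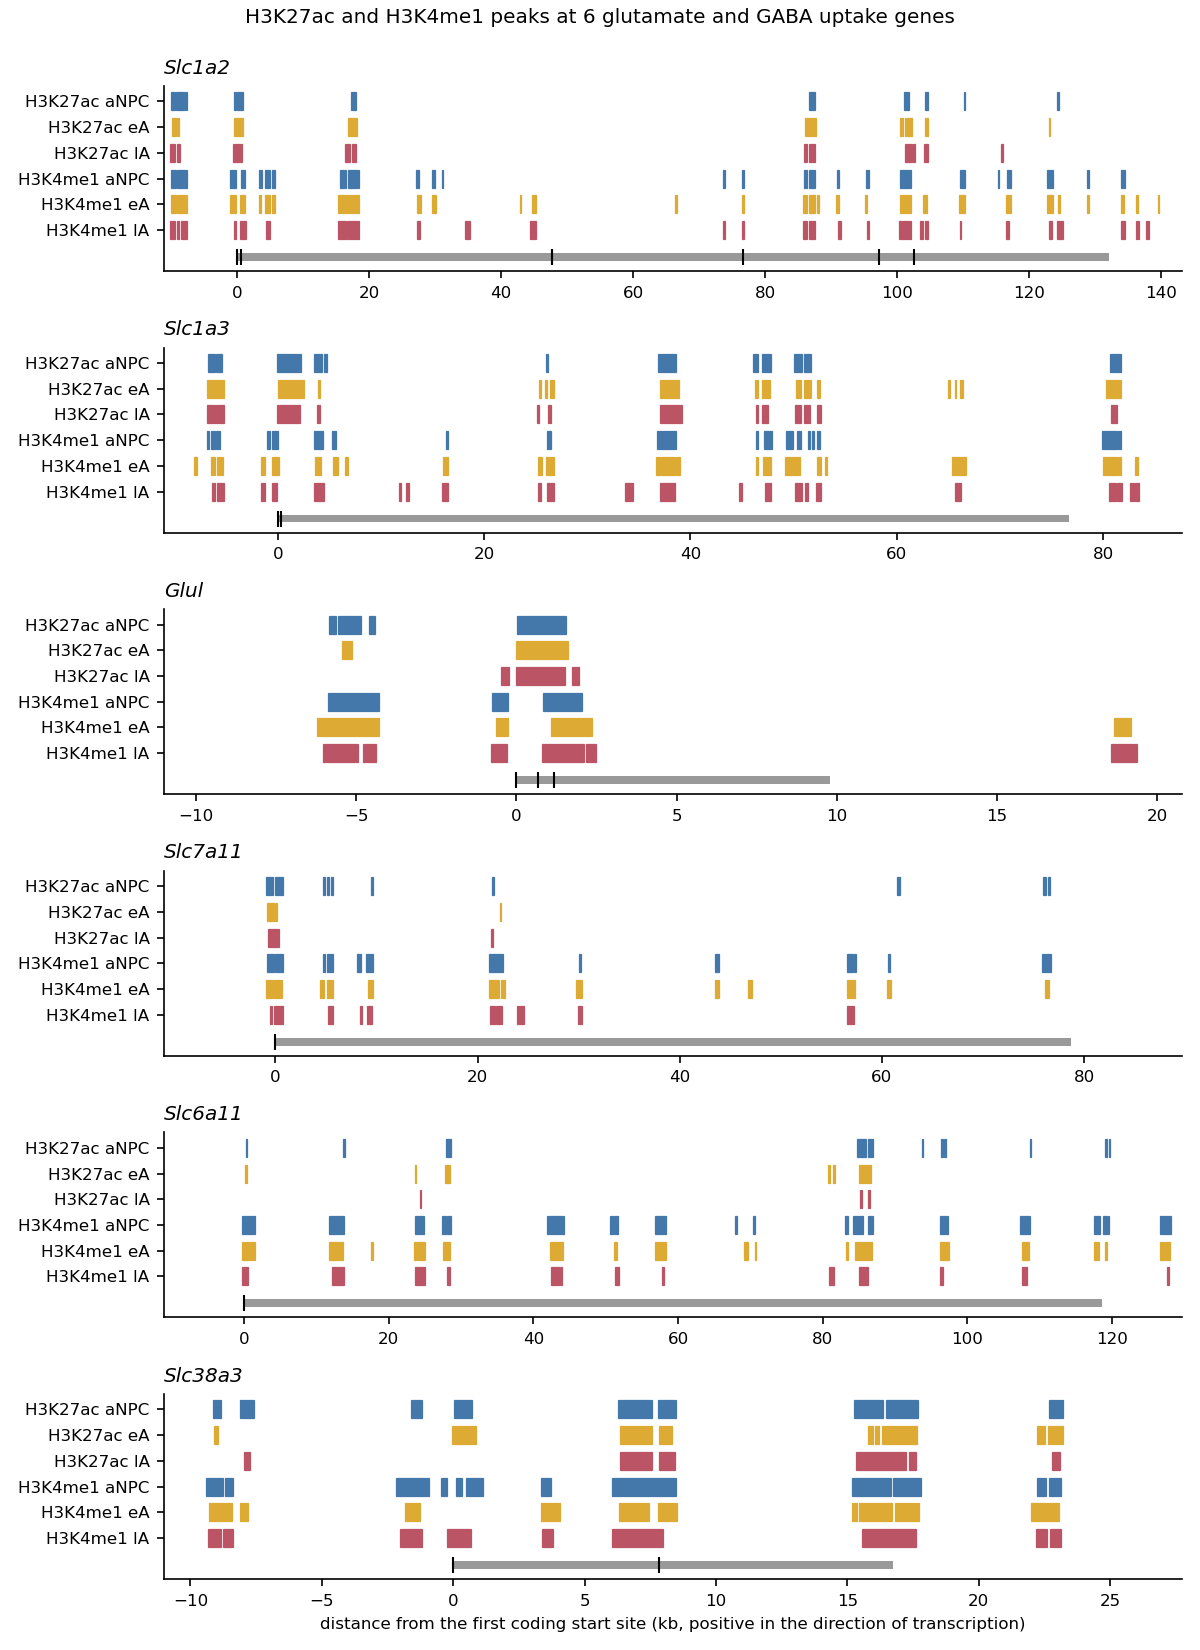
Peaks (coloured boxes) of both marks at aNPC, eA and lA in the window of each gene, by distance from the first coding start site in kb, positive in the direction of transcription. The grey bar is the gene and the black ticks are its coding start sites. H3K27ac at Slc6a11 and Slc7a11 was sparse at lA, while Slc1a3 had peaks in intron 3 at every stage.

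To follow single places, overlapping peaks of a mark were joined over the stages into sites, 72 for H3K27ac and 116 for H3K4me1. Strength within a list is given by the −log10 q of MACS2 at the summit, a measure of significance, and by the rank of the peak, as its top percentage in its own list. The −log10 q values of different lists are printed side by side, but the depths are unknown and differences between them do not measure a change. A rank gives the place of a peak among the others of its list and depends on how many peaks the list holds, so that the ranks of different stages stand side by side and do not measure a change in acetylation or methylation. Of the 72 H3K27ac sites, 67 (93.1%) overlapped an H3K4me1 peak at some stage, and 87.4% of all H3K27ac sites did.

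Slc1a2 lies on chr2:102498816-102630941 (plus strand, 7 coding start sites). Its promoter site, chr2:102498275-102499747, had an H3K27ac peak at each stage, with a −log10 q of 54.5 at aNPC, 32.8 at eA and 7.59 at lA. The rank of this peak was 11575, 16909 and 50437, or the top 14.6%, 20.3% and 54.4%. An intronic site stood in another order. The site in intron 5, chr2:102585373-102586462, about 87.1 kb from the start site, had a −log10 q of 13.8 at aNPC, 75.6 at eA and 35.9 at lA, and ranks of 31738, 6878 and 7823, or the top 40.0%, 8.24% and 8.44%. It was the best-ranked H3K27ac peak of the gene at eA and lA, and its eA summit is the first sequence printed above. The intron 5 site already had an H3K4me1 peak at aNPC (−log10 q 23.9) and kept one at eA and lA. A noncoding gene, Gm13872, runs through it on the other strand, with its start site at 88.1 kb and no H3K27ac peak at that start.

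Other Slc1a2 sites were also ranked in different orders over the stages. Upstream, the sites at −9.67 and −8.56 kb had H3K27ac peaks at all stages and ranked in the top 15.1% and 17.6% at aNPC, 39.6% and 52.9% at eA, and 25.4% and 51.4% at lA. The same −9.67 kb place held the best H3K4me1 peak of the gene at every stage (top 1.52%, 2.88% and 0.587%). The site in intron 7 at 101.7 kb, beside an internal start site at 102.5 kb, ranked in the top 51.5%, 31.1% and 25.3%. Of 15 Slc1a2 sites for H3K27ac, 7 had a peak at all stages, 3 at aNPC only, 2 at eA only, 2 at lA only and 1 at eA and lA. Of the 7 start sites, those at 47.7, 47.8 and 97.2 kb had no promoter peak of either mark, and that at 76.6 kb had H3K4me1 but no H3K27ac at any stage.

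Slc1a3 lies on chr15:8584124-8660764 (minus strand). It kept more of its H3K27ac sites than any other of the 6 genes: 10 of 18 had a peak at all stages, and 10 of the 12 aNPC peaks still overlapped a peak at lA. The promoter site, chr15:8658211-8660869, spanned 2659 bp and reached into the gene, with a −log10 q of 36.9, 61.0 and 20.5 at aNPC, eA and lA and ranks of 20.2%, 10.9% and 19.4%. Most of the other strong sites lay in intron 3. At 47.4 kb, the site chr15:8612911-8613824 was the best of the gene at aNPC, with a −log10 q of 99.9 in the top 6.84%, and ranked in the top 23.6% at eA and 33.9% at lA. Its neighbour at 50.4 kb ranked in the top 9.82%, 13.7% and 18.5%. By contrast, the site at 38.0 kb, chr15:8621622-8623883, had rank 19558 at aNPC (top 24.6%), 14072 at eA (top 16.9%) and 9238 at lA (top 9.97%), where it was the best of the gene. Past the end of the gene, the site at 81.0 kb ranked in the top 12.4%, 22.1% and 10.9%.

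New H3K27ac at Slc1a3 came within the gene. In intron 3, sites at 25.3, 26.5 and 52.4 kb had peaks at eA and lA but none at aNPC, with −log10 q values from 4.70 to 8.30. In intron 6, sites at 65.7 and 66.2 kb had a peak at eA only, and an H3K4me1 peak overlapped both at eA and lA but not at aNPC. Another eA site, at 65.1 kb in coding exon 6, had a −log10 q of 2.84 and no H3K4me1 peak at any stage.

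Slc6a11 lies on chr6:114081235-114199880 (plus strand, 1 coding start site). Its H3K27ac centred on 1 large site in intron 6, chr6:114165910-114168160, about 85.8 kb from the start site. This site was covered over 1959 bp at aNPC, 1714 bp at eA and 595 bp at lA. Its best peak had a −log10 q of 103 at aNPC (top 6.58%), 19.3 at eA (top 30.8%) and 5.04 at lA (top 76.8%). The sequence printed for Slc6a11 is from the summit of the first of these. No H3K27ac peak overlapped the promoter as defined here. A small site in intron 1 at 0.314 kb, chr6:114081377-114081722, had peaks at aNPC (top 85.9%) and eA (top 48.2%) and none at lA, so that a promoter of 1 kb on both sides gives 6, 6 and 5 marked genes. Of 14 Slc6a11 sites, 7 had H3K27ac at aNPC only, against 21.5% of all sites, and 9 of the 11 aNPC peaks met no peak at lA, against 45.4% of all aNPC peaks.

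H3K4me1 at Slc6a11 covered less at lA than at aNPC, at the promoter and over the window, while the promoter peak stayed high in its list. The promoter peak ranked in the top 4.20% of the H3K4me1 list at aNPC, 0.842% at eA and 1.48% at lA, the best of the gene each time. Its length fell from 1817 bp at aNPC to 828 bp at lA. Over the window, H3K4me1 went from 20 peaks and 19.8 kb at aNPC to 23 and 17.5 kb at eA and 13 and 10.1 kb at lA. Of the 20 aNPC peaks, 9 met no H3K4me1 peak at lA (45.0%), where 27.2% of all aNPC peaks met none. The intron 5 site at 43.1 kb, 2285 bp wide and in the top 6.73% at aNPC, had H3K4me1 at all stages and H3K27ac at none.

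Glul lies on chr1:155747074-155756853 (plus strand). The H3K27ac site at its promoter, chr1:155747057-155748668, was covered over 1534, 1612 and 1509 bp and had a −log10 q of 69.7, 86.3 and 36.9, in the top 11.2%, 6.57% and 8.02% of the lists of aNPC, eA and lA. It was the best-ranked H3K27ac peak of the gene at every stage. The start site of 5830403L16Rik, a coding gene on the other strand, lies 264 bp inside Glul, and the acetylation of both promoters cannot be told apart. Upstream of Glul, 3 sites from −5.74 to −4.50 kb had H3K27ac at aNPC, 1 of them also at eA, and none at lA. A single H3K4me1 site of 1930 bp, chr1:155740849-155742778, overlapped all of them at every stage and was the best H3K4me1 peak of the gene each time (−log10 q 31.2, 28.2 and 30.7). At lA, small H3K27ac peaks appeared on both sides of the promoter site, at −0.356 and 1.85 kb, with −log10 q values of 4.37 and 3.86, and both places had H3K4me1 from aNPC on.

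Slc7a11 lies on chr3:50168858-50247535 (minus strand, 1 coding start site). Its promoter held the best-ranked H3K27ac peak of all 58 at aNPC. The peak at the start site, chr3:50246735-50247599, had a −log10 q of 142 and rank 2982 of 79413 (top 3.76%). The best promoter peak ranked 27205 of 83433 at eA (top 32.6%, −log10 q 17.9) and 31137 of 92700 at lA (top 33.6%, −log10 q 12.6). The promoter site as a whole, chr3:50246735-50248491, was covered over 1605, 965 and 1167 bp. H3K4me1 at the same promoter had rank 15747 of 154238 at aNPC (top 10.21%), 5523 of 185478 at eA (top 2.98%) and 500 of 208333 at lA (top 0.240%). The sequence printed for Slc7a11 lies inside this site.

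Of the 10 Slc7a11 sites for H3K27ac, 7 had a peak at aNPC only, against 21.5% of all sites. These 7 lay in exon 2 and introns 2 and 3 at 4.77, 5.18, 5.62 and 9.53 kb, in exon 8 at 61.7 kb and in exon 12 at 76.1 and 76.5 kb, and their −log10 q ranged from 3.75 to 19.7. H3K4me1 remained at lA over 3 of these 7 places, those at 5.18, 5.62 and 9.53 kb. In the genome, 55.5% of sites with H3K27ac at aNPC and none at lA had H3K4me1 at lA. In intron 5, the H3K4me1 site chr3:50224796-50226379 had a peak at every stage (−log10 q 21.9, 21.7 and 20.9), and small H3K27ac peaks came and went inside it, at 21.5 kb at aNPC and lA and at 22.3 kb at eA.

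**Figure D3:**
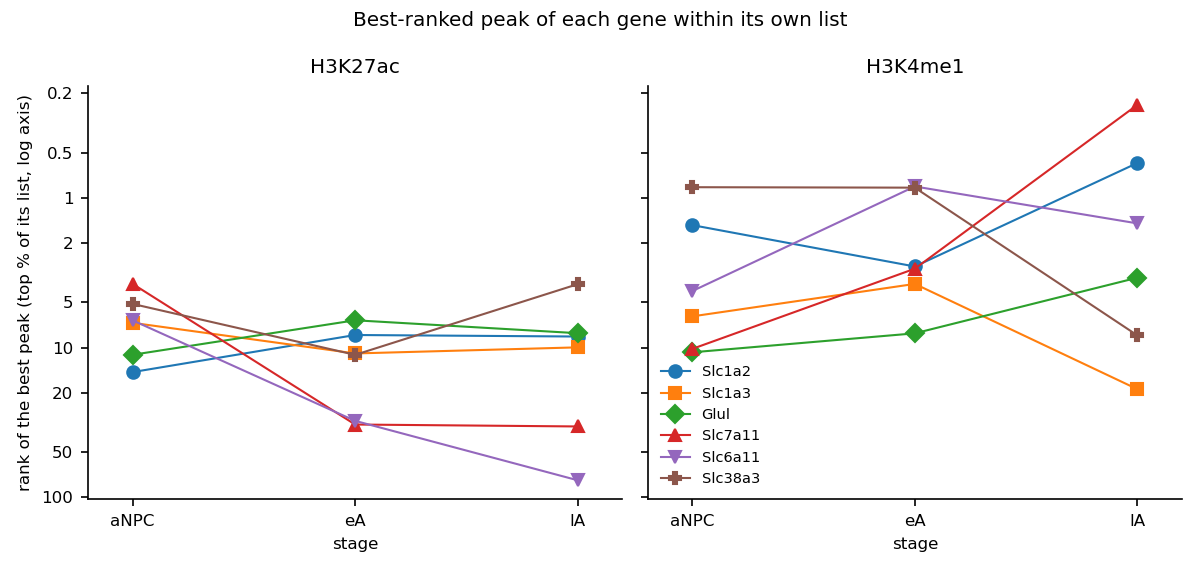
Rank of the best peak of each gene within its own list, as the top percentage on a log axis with the strongest at the top, for H3K27ac on the left and H3K4me1 on the right. For H3K27ac, the best Slc7a11 peak was in the top 3.76%, 32.6% and 33.6% and that of Slc6a11 in the top 6.58%, 30.8% and 76.8%, while the best peaks of the other 4 genes were in the top 15%. For H3K4me1, the best Slc7a11 peak was in the top 0.240% at lA.

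Slc38a3 lies on chr9:107552970-107569705 (minus strand) and has 2 coding start sites. The upstream one, at 107569705, had an H3K27ac peak at aNPC (−log10 q 25.3, top 26.7%) and eA (39.5, top 17.3%) and none at lA. The downstream one, at 107561859 and 7.85 kb into the gene, had peaks of both marks at all stages. The site chr9:107562151-107563434, which lies in intron 1 and overlaps the promoter of the downstream start site, was the strongest of the gene at aNPC and lA, with a −log10 q of 120 at aNPC, 57.8 at eA and 52.7 at lA and ranks of 5.11%, 11.7% and 3.77%. Its covered length was 1284, 1196 and 1206 bp. The sequence printed for Slc38a3 comes from its aNPC summit. A wide site over the end of the gene, chr9:107552020-107554435, ranked in the top 8.27% at aNPC and 27.1% at eA, with −log10 q values of 87.5 and 22.8, and its best peak at lA had a −log10 q of 8.34. A site at 22.9 kb, past the end of the gene, was best at eA (top 20.5%, 11.2% and 50.8%). Sites at −7.84 and −9.00 kb lie inside the neighbouring gene Gnat1, had H3K27ac −log10 q values of at most 7.59, and cannot be given to either gene.

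By their pattern over the stages, the H3K27ac sites of the 6 genes differed from those of the genome. They fell more into the classes of all stages, of aNPC only, and of aNPC and eA. The sites of the genome include those far from any gene, while the sites of the 6 genes lie within 10 kb of one. Of the 72 sites, 24 had a peak at all stages (33.3%), against 26.0% of 132992 sites in the genome. Another 21 had one at aNPC only (29.2% against 21.5%) and 6 at aNPC and eA (8.33% against 4.87%). Sites of aNPC and lA numbered 2 (2.78% against 3.30%), and those of eA only numbered 10 (13.9% against 11.1%). Sites with H3K27ac at lA but not at aNPC were fewer, with 4 at eA and lA (5.56% against 13.9%) and 5 at lA only (6.94% against 19.3%). Of the 21 sites of aNPC only, 14 belonged to Slc7a11 and Slc6a11. The sites of a gene share its chromatin and are not independent, and no test was made of these shares. Of the 116 H3K4me1 sites, 56 had a peak at all stages (48.3% against 39.1%), 8 at aNPC only (6.90% against 7.80%), 12 at eA only (10.3% against 8.11%) and 11 at lA only (9.48% against 23.3%). A further 16 had one at aNPC and eA (13.8% against 7.72%), 4 at aNPC and lA (3.45% against 2.05%) and 9 at eA and lA (7.76% against 12.0%).

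**Figure D4:**
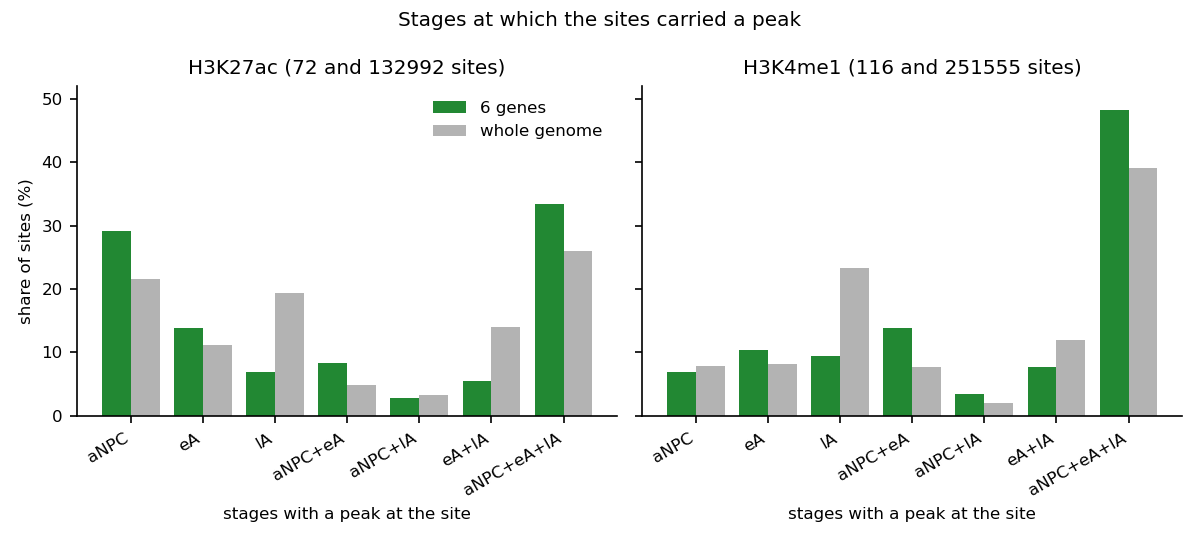
Share of sites (%) by the stages at which they carried a peak, for the 6 genes (green) and the whole genome (grey), for H3K27ac on the left and H3K4me1 on the right. At the 6 genes, sites with a peak at lA only made up 6.94% of H3K27ac sites and 9.48% of H3K4me1 sites, against 19.3% and 23.3% in the genome.

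Loss of H3K27ac over the whole group was near the rate of the genome and was uneven between genes. Of the 58 aNPC peaks, 23 met no peak at eA (39.7%), against 42.8% of all aNPC peaks, and 27 met none at lA (46.6%), against 45.4%. Of the 48 eA peaks, 17 met none at lA (35.4%), against 28.2%. By lA, 9 of 11 aNPC peaks were gone at Slc6a11, 7 of 10 at Slc7a11, 3 of 4 at Glul and 3 of 9 at Slc38a3, but only 3 of 12 at Slc1a2 and 2 of 12 at Slc1a3. Of the places without H3K27ac at lA, some had H3K4me1 there. An H3K4me1 peak lay at lA over 17 of the 27 sites with H3K27ac at aNPC and none at lA (63.0%), against 55.5% of such sites in the genome, and 2 of the 17, at 124.4 kb of Slc1a2 and 4.61 kb of Slc1a3, had no H3K4me1 peak at aNPC. These were 2 of 3 at Slc1a2, 2 of 2 at Slc1a3, 3 of 3 at Glul, 3 of 7 at Slc7a11, 4 of 9 at Slc6a11 and 3 of 3 at Slc38a3.

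Regions that gained H3K27ac after aNPC, joined from the eA and lA peaks that overlapped no aNPC peak, numbered 20. They include a region in intron 1 of Slc1a2, beside aNPC peaks with which an eA peak joins it into 1 site, so that they exceed by 1 the sites without aNPC. They numbered 11 where every list was limited to −log10 q values from 5 upward. An aNPC H3K4me1 peak already lay over 12 of them (60.0%), and over 51.5% of the 61468 such regions of the genome. At Slc1a2, an aNPC H3K4me1 peak lay over 4 of 6 regions, in intron 1, intron 5, intron 7 and the last exon, and the 2 without it had no H3K4me1 peak at any stage. At Slc1a3, one lay over 2 of 6, both in intron 3. The numbers were 2 regions at Glul, 1 of 1 at Slc7a11, 2 of 4 at Slc6a11 and 1 of 1 at Slc38a3. At the other 2 regions of Slc6a11, at 80.9 and 81.5 kb in intron 6, H3K27ac was called at eA and H3K4me1 only at lA.

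Other genes of the same pathways were taken from a list of 27, all found in the annotation. Their promoters had H3K27ac in 15 at aNPC, 18 at eA and 12 at lA (50.6%, 53.2% and 48.2% of all coding genes had it), and H3K4me1 in 20, 18 and 20 (55.4%, 53.6% and 52.7%). Between aNPC and lA, 4 promoters lost their H3K27ac peak: Slc1a5 and Slc38a2, which carry neutral amino acids including glutamine, Got2, the mitochondrial aspartate aminotransferase, and Gclm, a subunit of the enzyme that begins glutathione synthesis. The only promoter that gained one was that of Slc17a8, a vesicular glutamate carrier, which had it from eA on. Slc1a1 and Slc1a6, glutamate carriers mainly of neurons, had an H3K27ac promoter peak at eA only. Slc6a13, another GABA carrier, had no promoter peak of either mark at any stage. The covered H3K27ac share was smaller at lA than at aNPC for 13 of the 27 genes and larger for 11. The rest had no peak at either stage. Of the 16553 windows of coding genes with a peak at either stage, 49.2% had a smaller share at lA. Slc1a7, a further glutamate carrier, rose from 6.34% at aNPC to 11.8% at eA and 14.5% at lA, and Slc3a2, the heavy chain partner of Slc7a11, had 12.8%, 18.1% and 17.8%.

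**Figure D5:**
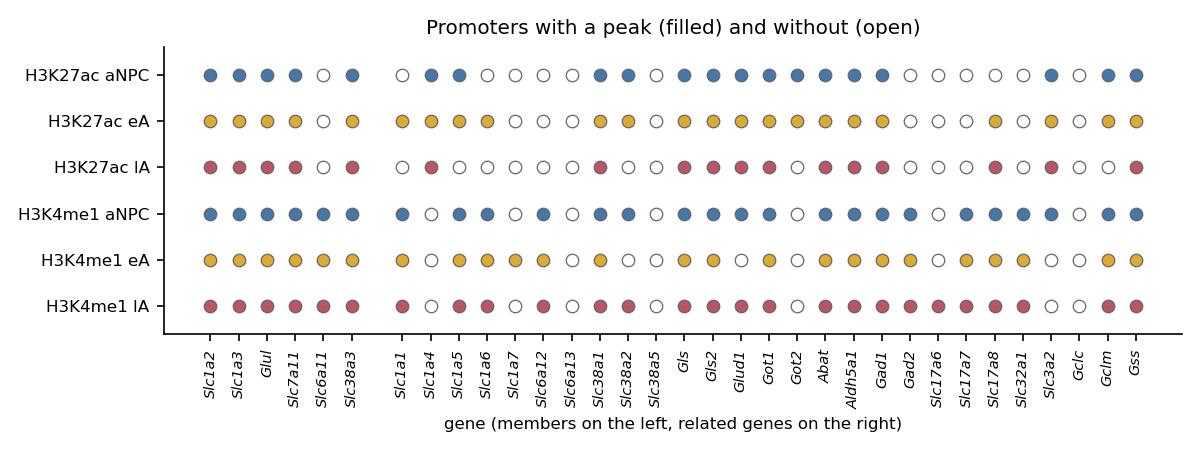
Promoters with a peak (filled circles) and without one (open circles) for each mark and stage (rows), at the 6 genes on the left and 27 related genes on the right (columns). H3K27ac marked 5, 5 and 5 of the 6 genes and 15, 18 and 12 of the 27.

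As a check of the cells, promoters of cell type markers were examined. H3K27ac was found at the promoters of 3, 3 and 4 of 6 astrocyte markers at aNPC, eA and lA. Gfap and Sox9 were marked at every stage, Gja1 at eA and lA, Aqp4 at lA, S100b at aNPC and Aldh1l1 at none. The mark was found at 3 of 4 progenitor markers at each stage, Nes, Sox2 and Pax6 but not Olig2. Of 6 neuronal markers, 3, 2 and 2 had it, Tubb3 and Gad1 at every stage and Syt1 at aNPC. Of all coding genes, 50.6%, 53.2% and 48.2% had such a peak. The astrocyte and neuronal counts are too small to be set apart from those shares. None of the 4 oligodendrocyte, 4 microglia, 3 endothelial and 3 fibroblast markers had an H3K27ac promoter peak at any stage. Over their windows, with 10 kb on each side, Mag, Cx3cr1, Tmem119, Cldn5 and Lum had no H3K27ac peak at any stage. The median covered share at aNPC, eA and lA was 0.659%, 2.22% and 3.04% for the oligodendrocyte markers, 1.19%, 1.12% and 0.969% for those of microglia, 2.10%, 0.730% and 1.85% for endothelial cells and 0.521%, 0.0615% and 0.454% for fibroblasts. The largest shares were at Col1a1 (5.32%, 9.70% and 10.6%) and Aif1 (7.54%, 9.29% and 6.998%), and Mbp had 1.32%, 3.02% and 4.63%. A peak list of a mixed culture does not tell which cells carried a mark, and the part of such cells in the results was not tested.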

How the data were processed

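ChIP-seq reads of H3K27ac and H3K4me1 from aNPC, eA and lA were aligned by the authors to mm9 with Bowtie, the alignments of 2 replicates were merged with SAMtools, and peaks were called with MACS2 without an input control. The deposited lists give, per peak, its position, its summit and the −log10 of the q-value that MACS2 computed there. The read depth is not given in the lists and is unknown here, so that differences in −log10 q between lists were not read as changes. The alternative limit of 5 stands for a different number of reads in each list if their depths differ. The 4 or 5 mitochondrial peaks of each list were set aside. Peaks that shared 1 bp or more counted as overlapping, and genes and coding start sites came from GENCODE M1. No test was run, because 1 merged list per stage and mark leaves no replicate error. Interval functions were tested on simulated data. Python 3.11.15, NumPy 2.4.6, SciPy 1.17.1 and matplotlib 3.10.9 were used.

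The 6 genes, the related genes, the markers and the motifs were chosen with earlier results of these data known. All 6 genes are named, with peaks at their promoters, the strongest distal peaks and sites of single stages. Other genes are named only from the 2 lists or as neighbours, and some list members are not reported here. Alternatives were a −log10 q of at least 5, lists of equal length, windows of 5 and 50 kb, other promoter regions and matching by summits. The RNA-seq samples and the siRNA and control ChIP-seq samples were not analysed here, and 8 of the 51 samples have conflicting labels and were put in no group.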

Additional observations from a re-analysis of the deposited data

How the results depend on the processing

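Of 65 alternatives of the values for the 6 genes together, 59 stayed within 1.5 times or, for shares, within a binomial interval, and 6 moved, all of them peak counts with 50 kb on each side of the genes. The promoter counts, of at most 6 genes, and the share of 20 regions had little room to leave these limits. The interval for the share, 38.7% to 78.1%, treats regions of the same gene as independent, which they are not. That 59 stayed therefore says little about how firm the promoter counts and the share are. With the 50 kb window, which takes in peaks of more neighbouring genes, H3K27ac peaks numbered 105 at aNPC, 97 at eA and 87 at lA, and H3K4me1 peaks 163, 176 and 170. The order of the stages for H3K27ac was the same with a −log10 q of at least 5 (47, 38 and 30 peaks) and with equally long lists (58, 44 and 35). H3K4me1 was highest at eA with a −log10 q of at least 5 (76, 84 and 81) and fell throughout with equally long lists (95, 90 and 76). Counts of single genes moved more with a −log10 q of at least 5: H3K27ac peaks went from 11, 6 and 3 to 7, 3 and 1 for Slc6a11 (0.791 to 0.266 kb at lA, and to 0.462 kb with equally long lists), and at lA from 2 to 1 for Slc7a11 and from 3 to 1 for Glul. Gained regions numbered 11 instead of 20 under that limit and 53 with 50 kb on each side. The share of gained regions with earlier H3K4me1 ranged from 56.3% to 66.0%. No paired analysis was possible because the replicates were merged before peaks were called. The unknown depth limits every absence: how many reads a place needed to be called is not known.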
